A study of Mus musculus with 12 samples.

Results

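The profile described here is that of cardiac colony-forming-unit fibroblasts (cCFU-F) left untreated in culture: 3 arrays of the 12 in the study. Its members were the 3 arrays labelled as untreated controls, and its measure was the mean log2 signal of each gene over them. The mice were C57BL/6 males aged 12 weeks. Heart cells positive for SCA1 and for the platelet-derived growth factor (PDGF) receptor alpha and negative for CD31, an endothelial protein, were isolated, per the labels, and then cultured. The arrays are of bulk passage 0 (P0) cultures, that is, cells measured before any replating. The other 9 arrays hold the same kind of cells given PDGF-AB at 50 ng/ml, the inhibitor AG1296 at 1 uM or AG1296 at 10 uM, with 3 arrays each. AG1296 blocks the tyrosine kinase of the PDGF receptors and binds some related kinases. The labels do not say whether arrays of a group came from separate animals or cultures, so the spread given here, and every p-value, measures only differences between arrays, which may be technical. No freshly sorted cells, whole heart or other cell type was measured in the study, so the profile has no reference sample of another kind.

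Cardiac fibroblasts are the stromal cells of the heart: they make and remodel the collagen-rich matrix between muscle cells, and they arise largely from the epicardium, the outer layer of the heart. Grown on plastic they are known to take on features of the myofibroblast, a contractile, matrix-secreting state with actin stress fibres. The PDGF receptors are tyrosine kinases that bind dimeric PDGF ligands and drive division and migration of mesenchymal cells.

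The deposited values are log2 signals of probe sets, and each gene was given its brightest probe set, which left 19938 genes. Probe sets differ in how strongly they bind the same amount of RNA, so a rank orders signals and not amounts of mRNA. As a yardstick for no expression, the 1190 olfactory and vomeronasal receptor genes were used, which are made in sensory neurons of the nose. Their 95th percentile was 3.37, 3.24 and 3.32 on the log2 scale in the 3 untreated arrays. A gene was called above background when it exceeded that bound in all 3 arrays, at background when it did so in none, borderline otherwise, and high when it was in the top 10% of genes in all 3, which began at 7.83 to 7.90. By these rules 1889 genes (9.47%) were high, 11059 (55.5%) middling, 1173 (5.88%) borderline and 5817 (29.2%) at background, so that 12948 (64.9%) were above background. The bound is lenient. Of 63 genes restricted to other tissues, such as hormone, milk, lens and digestive genes, 17 exceeded it in all 3 arrays, the brightest being Lhb, a pituitary hormone subunit, at 5.40. The 95th percentile of those 63 genes was 4.92, 4.69 and 4.91. It serves below as the stricter bound, and 8560 genes (42.9%) exceeded it in all 3 arrays. So did 4 of the 63 genes of other tissues, Lhb among them. A signal between the stricter bound and 5.40 therefore need not mean expression. Genes above the first bound in all 3 arrays but not above the stricter one in all 3 are described as near background.

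**Figure D1:**
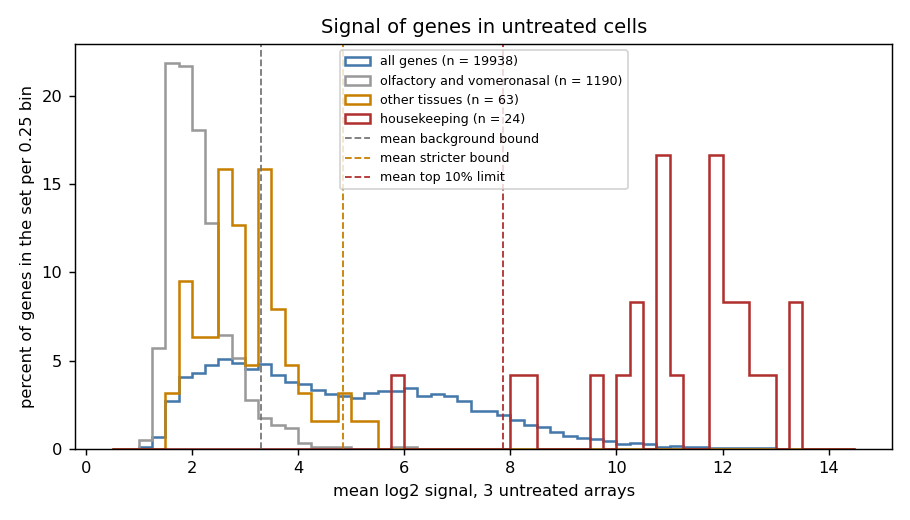
Percent of genes per 0.25-wide bin (vertical axis) by mean log2 signal over the 3 untreated arrays (horizontal axis) for all 19938 genes, the 1190 olfactory and vomeronasal receptor genes, 63 genes of other tissues and 24 housekeeping genes, with dashed lines at the mean over the arrays of each bound. The receptor genes pile up below the background bound, the other-tissue genes reach 5.40, and 23 of the 24 housekeeping genes were high.

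Across genes, which are not independent replicates, the 3 untreated arrays correlated pairwise at 0.995 each, and with the treated arrays at 0.991 to 0.995, so this measure hardly separates the groups. The median SD of a gene over the 3 arrays was 0.117 on the log2 scale, 0.0620 for high genes and 0.140 for genes at background. Only 16 genes above background had an SD over 0.5. Hmgb1, a chromatin protein, had the largest, with 3.79 in replicate 1 against 5.06 in replicate 2 and 4.77 in replicate 3. The next were the zinc finger genes Zfp626 (SD 0.616) and Zfp764 (0.592), then Mrpl42, a mitochondrial ribosome subunit (0.588), Trim13 (0.558), Thap6 (0.534), Fam167b (0.529), Acnat1 (0.528), Chic1 (0.524) and Sbpl (0.502), and no array was the outlying one in all of them. None of these named genes exceeded the stricter bound in all 3 arrays, so they were near background. Median array signals over genes were 4.45, 4.40 and 4.48.

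The genes by which the cells were sorted or by which cardiac fibroblasts are known matched the label for the 4 markers looked at first, the receptor, the transcription factor, the collagen and the endothelial gene. Pdgfra, the receptor used in the sort, had log2 signals of 9.49, 9.41 and 9.35, a mean of 9.42 ± 0.07 (SD, n = 3), above 97.3% of genes. Tcf21, a transcription factor of epicardium-derived fibroblasts, had 8.15, 8.33 and 8.05, and Col1a1, which encodes a chain of type I collagen, had 11.11, 10.99 and 11.15. All 3 genes were high in every array. Pecam1, which encodes CD31, had 2.94, 2.92 and 3.21 and was at background in every array. Ly6a, which encodes SCA1, was not analysed here.

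Of 28 measured genes of a fibroblast identity list, 17 were high, against 9.47% of all genes, and 22 exceeded the stricter bound, against 42.9%. This list, like the others, was chosen with earlier results of these data known, so such shares describe it and do not test identity. The list's median signal was 8.67, beside 4.44 for all genes. The brightest was Vim, an intermediate filament protein of mesenchymal cells, at 12.85, followed by Fstl1, a secreted glycoprotein, at 11.42. Further high members were the collagen folding enzyme P4hb, S100a4, Col1a2, Fbln2, Tbx20, Mfap5, the collagen receptor Ddr2, Gsn, Lamc1, Pdgfrb, Col3a1 and Thy1. Other members gave no signal above the bound. Lum, a small leucine-rich proteoglycan of collagen fibrils, had 2.39, 2.50 and 2.58. Fap, a surface protease of activated fibroblasts, had 1.99, 1.91 and 1.80, above 6.03% of genes, and Pi16, a marker of adventitial fibroblasts, averaged 3.15. These 3 were at background in all arrays, and Clec3b (3.40) and Dpt (3.23) were borderline. Dcn, another small leucine-rich proteoglycan, lay just under the top 10% with 7.69, 7.63 and 7.61. Among 15 surface proteins typical of mesenchymal stromal cells, 8 were high, led by the tetraspanin Cd81 at 12.21 and integrin beta 1 (Itgb1) at 11.10, and none was at background. The lowest, Nt5e, which encodes CD73, averaged 4.17, near background.

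**Figure D2:**
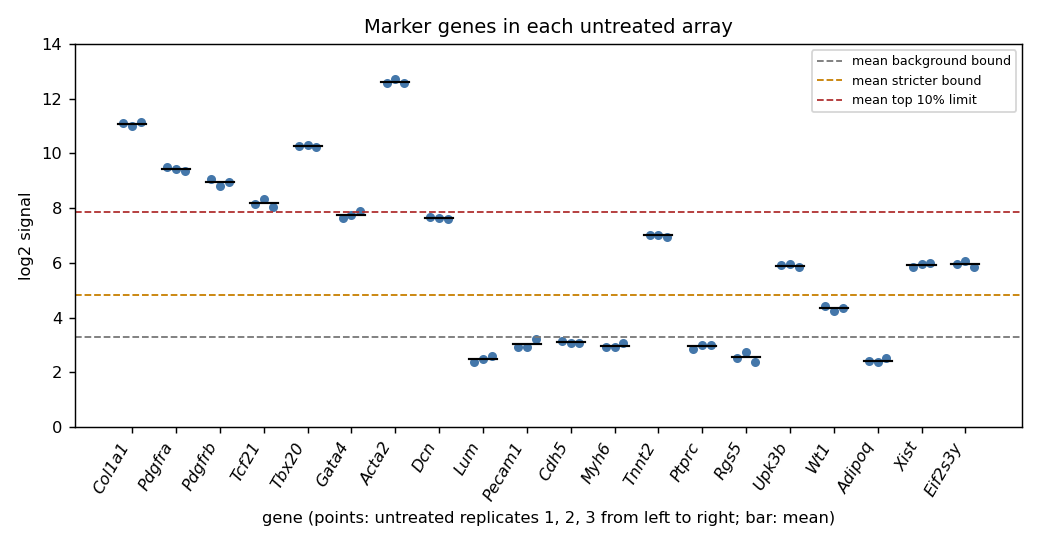
Log2 signal (vertical axis) of 20 marker genes (horizontal axis) in the 3 untreated arrays as points from left to right, with the mean as a bar and dashed lines at the mean bounds. Col1a1, Pdgfra, Pdgfrb, Tcf21, Tbx20, Gata4, Acta2 and Dcn lie at or above 7.64 on average, while Lum, Pecam1, Cdh5, Myh6, Ptprc, Rgs5 and Adipoq lie below the background bound in every array.

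The stretches upstream of the transcription start differ among these genes, and they are printed as examples of windows with and without the motifs: those of the sorting receptor and Tcf21, and those of the bright cytoskeletal genes Vim and Myl9. The sequences are RefSeq's (GRCm38.p6), the 250 bases before the start, 5′ to 3′ on the gene's strand, with capitals for motifs found on either strand. The motifs searched were TATAAA, the core of a TATA box, CCAAT, a site bound by the factor NF-Y, and GGGCGG, the core of a GC box bound by the factor Sp1. The CArG box was also searched, the site of serum response factor in many contractile genes. Only its strict form CCWWWWWWGG was counted, W being A or T. The genes shown were chosen after their signals and sequences were seen, and Col1a1 and Pecam1 were not among the sequences used.
Pdgfra: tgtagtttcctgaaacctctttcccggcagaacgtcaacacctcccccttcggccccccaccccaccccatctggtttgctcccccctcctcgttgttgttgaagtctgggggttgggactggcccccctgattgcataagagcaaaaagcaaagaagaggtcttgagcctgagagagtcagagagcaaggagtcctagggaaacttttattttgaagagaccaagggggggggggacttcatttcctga
Tcf21: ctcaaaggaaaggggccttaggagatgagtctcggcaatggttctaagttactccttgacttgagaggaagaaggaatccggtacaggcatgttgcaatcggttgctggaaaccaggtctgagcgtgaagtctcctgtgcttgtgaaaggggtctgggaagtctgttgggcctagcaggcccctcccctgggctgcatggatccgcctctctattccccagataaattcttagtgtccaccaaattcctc
Vim: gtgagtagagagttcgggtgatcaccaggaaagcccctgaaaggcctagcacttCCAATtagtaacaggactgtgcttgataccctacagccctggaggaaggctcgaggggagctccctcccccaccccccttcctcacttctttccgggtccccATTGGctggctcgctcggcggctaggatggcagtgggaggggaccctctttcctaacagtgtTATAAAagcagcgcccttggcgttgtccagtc
Myl9: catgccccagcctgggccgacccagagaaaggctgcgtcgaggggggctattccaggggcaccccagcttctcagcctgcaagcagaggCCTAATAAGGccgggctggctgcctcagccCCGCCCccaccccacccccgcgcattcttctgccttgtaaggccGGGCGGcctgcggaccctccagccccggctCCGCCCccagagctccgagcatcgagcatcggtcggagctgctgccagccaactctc
Pdgfra lies at chr5:75152001-75152250 on the plus strand and Tcf21 at chr10:22820144-22820393 on the minus strand, and neither window held any of the motifs. Vim, at chr2:13574061-13574310 on the plus strand, had TATAAA beginning 32 bases before the start and CCAAT on both strands. Myl9, a regulatory light chain of myosin, at chr2:156775214-156775463 on the plus strand, had a CArG box beginning 161 bases before the start, with 3 GGGCGG motifs. Of the windows read and not printed, that of the contractile gene Acta2 held none of the motifs in these forms. It did hold ccctatatgg, which has a C where the strict CArG form has A or T. The window of Cnn1 held CCAAT and no CArG box of the strict form. A window without a motif says only that these letters are not in it.

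Promoter composition differed between the classes. A RefSeq window of 300 bases, 250 before and 50 after the start, was matched for the 12935 genes with exactly 1 listed promoter (64.9% of genes). Its median ratio of observed to expected CpG dinucleotides was 0.82 for high genes, 0.75 for middling, 0.36 for borderline and 0.21 for genes at background, beside 0.62 for all. GGGCGG was present in 74.3% of high and 18.4% of background windows, beside 49.3% of all. TATAAA was in 8.58% of high, 7.23% of middling and 23.8% of background windows, beside 12.9% of all. CCAAT barely differed between classes, from 35.7% to 39.3%. GGGCGG contains a CpG, so its share and the CpG ratio are not separate measures. The base composition of the array's probes can also move signal, and its part was not tested. The olfactory and vomeronasal genes that set the background bound were not left out here. Only 41 of the 1190 were above it in all 3 arrays, so the rule itself placed most of them at background or borderline. Their part in these class differences was not tested either. A CArG box of the strict form was in 2.07% of high windows and 1.44% of all. It was in 3 of the 9 matched windows of the myofibroblast list below and 3 of the 16 of the cardiomyocyte list. The other lists scored for motifs held none. Of the 18 matched windows of mitosis genes 15 held CCAAT, and of the 19 of Hox genes, a dim list, 13 did. Over the lists scored, the share with CCAAT ran from 25% for endothelial genes to 83.3% for mitosis genes.

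The 25 brightest genes, with ribosomal, predicted and non-coding genes left out, were led by housekeeping, cytoskeletal and matricellular genes. The translation factor Eef1a1 (13.44) and beta-actin (Actb, 13.40) came highest among those whose signal is not in doubt. The lectin Lgals1 (13.00), Vim, the tubulin Tuba1a (12.68), smooth muscle actin Acta2 (12.62), Ppia (12.58) and the matricellular protein Ccn2 (12.56) followed. Ccnd2, a D-type cyclin of the G1 phase, averaged 12.31. Thbs1, a matricellular glycoprotein, had 12.27, 12.21 and 12.22. The others were Txn1, Tpt1, Cd81, Fth1, S100a10, Anxa1, S100a6, Hspa8, Ldha, Myl6, Tubb5, Ftl1, Eef2 and Cst3, down to 11.88. The top place belonged to Baiap2l1 (13.85), but that probe set also lists ribosomal RNA records. Of its 3 probe sets the only one without such a record averaged 4.02. Of 63 measured ribosomal protein genes 46 were high, and 28 were among the top 100. More widely, 275 high genes had more than 1 probe set, 74 of these had probe sets more than 2 log2 units apart, and for 17 the dimmest was at or below the background bound.

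Matrix genes were bright for some structural families and dim for others. Of 11 fibrillar collagens 4 were high: Col1a1 at 11.08 ± 0.08, Col1a2 at 11.05 ± 0.03 (11.08, 11.03 and 11.03), Col5a2 at 8.55 and Col3a1 at 8.40 ± 0.06 (SD, n = 3 each). All 11 were above background, the lowest being Col24a1 at 4.12, and 9 exceeded the stricter bound. Col2a1, the collagen of cartilage, was among those at 6.21. Of 32 network-forming and other collagens only Col8a1, a short-chain collagen of vessel walls (9.87), and Col12a1, which decorates fibrils (9.09), were high, and 14 exceeded the stricter bound. The lowest was Col6a5 at 3.47. By signal both type I chains led the list, and of the 3 type V chains only Col5a2 was in the top 10%, with Col5a1 at 7.07 and Col5a3 at 4.83.

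Of 37 measured matrix glycoproteins 12 were high: Ccn2 at 12.56 ± 0.03, Thbs1 at 12.23 ± 0.03, Sparc at 11.71 ± 0.05 and fibronectin (Fn1) at 11.58 ± 0.07 (SD, n = 3 each), then Ccn1, Fbln2, Ccn5, Postn, Igfbp7, Fbln5, Tnc and Ccn4. Periostin (Postn), a matricellular protein of activated fibroblasts and of the developing heart, had 9.86, 10.15 and 9.91. At the other end Mmrn1, a protein of platelets and endothelium, averaged 1.91. Among 11 elastic fibre genes Mfap5 (9.58), Fbln5 (8.80) and Ltbp1 (7.99) were high, while elastin itself (Eln) averaged 5.44 and fibrillin 2 (Fbn2) 3.34. Among 32 proteoglycans and hyaluronan synthases 7 were high, namely Bgn at 11.15 ± 0.07 (SD, n = 3), the cell-surface proteoglycans Sdc4, Gpc4, Sdc2 and Gpc6, and Prelp and Ogn, both small leucine-rich proteins. The 14 above the stricter bound compare with 42.9% of all genes, and the lowest members were Kera, of the cornea, and Prg4, of joints, both at 2.22. The small leucine-rich family therefore spanned from Bgn, above 99.5% of genes, to Lum and Kera at background.

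Of 18 basement membrane genes 4 were high: Nid1 at 10.18, and the laminin chains Lamb1 (9.52), Lamc1 (9.36) and Lama2 (8.24). Lama3, a chain of epithelial laminin, was lowest at 3.02 and at background. Collagen-processing enzymes were brighter: 12 of 21 were high and 18 exceeded the stricter bound, with a list median of 8.29. The leading ones were P4hb (11.29), the crosslinking oxidase Lox at 11.16 ± 0.03 (SD, n = 3) and the lysyl hydroxylase Plod2 (10.26). The other high ones were Pcolce, P4ha1, the collagen chaperone Serpinh1, Loxl1, Colgalt1, Pcolce2, Plod3, Crtap and Loxl3, and P3h2 was lowest at 3.82. Of 34 proteases and inhibitors 10 were high. Of these, 3 were inhibitors of metalloproteases, Timp1 (11.51), Timp2 (10.71) and Timp3 (9.77), and the rest were Adam9, Adamts5, Mmp14, Adamts1, Mmp2, Adam19 and Adam10. Timp4 was lowest at 2.47, and the inflammatory-cell collagenase Mmp8 averaged 2.56.

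**Figure D3:**
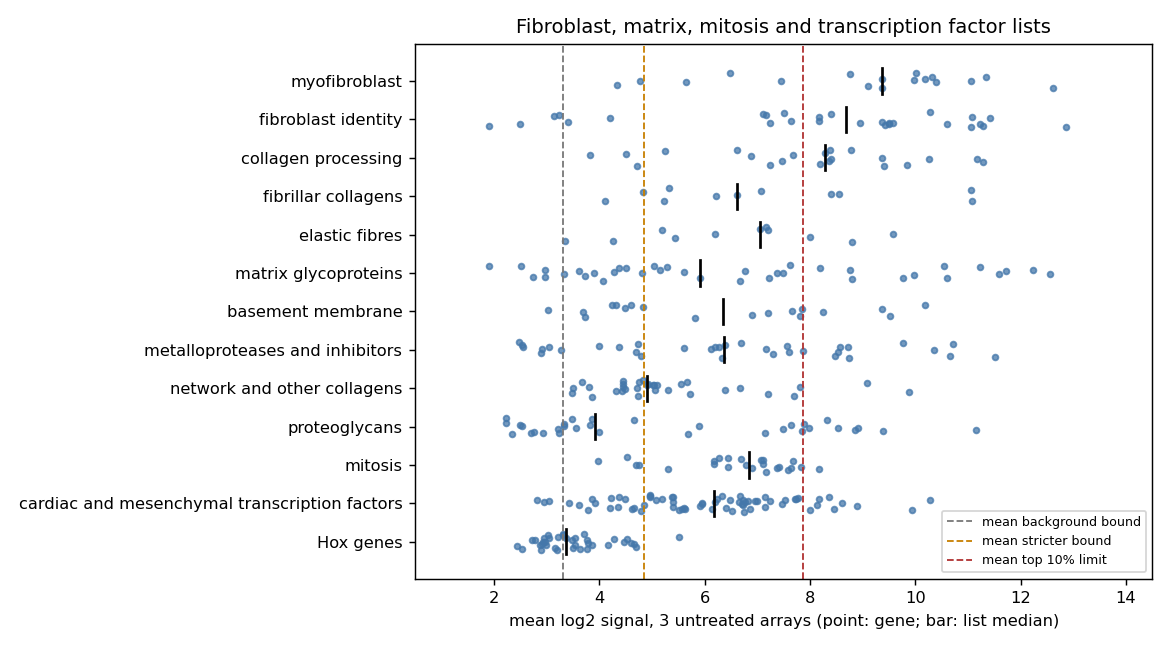
Mean log2 signal over the 3 untreated arrays (horizontal axis) of every measured member (points) of 13 gene lists (rows), with list medians as black bars and the mean bounds as dashed lines. The medians range from 3.37 for Hox genes to 9.37 for myofibroblast genes, and the proteoglycan, glycoprotein and metalloprotease lists spread from below the background bound to above the top 10%.

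Of 56 receptor tyrosine kinases 8 were high and 24 exceeded the stricter bound, beside 9.47% and 42.9% of all genes. Axl, a receptor for Gas6, led with 10.51, 10.54 and 10.50, followed by Ddr2 at 9.51 ± 0.07 and Pdgfra (SD, n = 3 each). Ryk, a Wnt co-receptor, Pdgfrb at 8.95 ± 0.13 (9.06, 8.81 and 8.97), Igf1r, Epha2 and Ddr1 completed the high group. Kit, the stem cell factor receptor and a further target of AG1296, had 3.57, 3.48 and 3.50, near background, and the endothelial receptors Kdr (3.11) and Tie1 (3.18) were at background and borderline. Epha5 was lowest at 2.25. Both PDGF receptors were therefore in the top 10% in every array.

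Of the PDGF ligands none was high. Pdgfd had 7.55, 7.52 and 7.41 and Pdgfa 7.19, 7.06 and 7.25, both above the stricter bound. Pdgfc, with 4.89, 5.08 and 5.32, was on both sides of it, and Pdgfb, with 4.08, 3.78 and 3.96, was near background.

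Of 26 integrin subunits 5 were high: Itgb1 at 11.10, Itgav (10.84), Itgb5 (9.79), Itga4 (8.52) and Itga5 (8.21), the last being the fibronectin receptor's alpha chain. The leukocyte integrins Itgax (2.45), Itgam and Itgal were at background. Of 15 receptors of the transforming growth factor beta (TGF-beta) and bone morphogenetic protein families, 4 were high, namely the co-receptor Eng (9.12), Bmpr2 (8.43), Acvrl1 (8.31) and Bmpr1a (8.29), and Acvr1c was lowest at 2.56. Of 49 cytokine, Wnt and Notch receptors 48 were above background and 39 exceeded the stricter bound. The high ones were Il6st, the shared chain of interleukin-6 type receptors, at 10.05, Tnfrsf12a, Plxna1, Ifngr2, Unc5b, Lrp1, Tnfrsf1a and Lrp6, and the single background member was Il13ra2 at 1.78. Receptors for vasoactive and lipid ligands were mostly dim. Of 36 only F2r, the thrombin receptor, was high, with 9.87, 9.74 and 9.72, and 10 exceeded the stricter bound. The angiotensin receptor Agtr1a had 2.82, 2.98 and 2.66 and was at background, as was the lowest, Ptger3 (2.34).

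Of 68 transcription factors of heart and mesenchyme 65 were above background, against 64.9% of all genes, and 9 were high. Tbx20, a T-box factor of heart development, was brightest with 10.28, 10.30 and 10.23, followed by the Hippo pathway factor Tead1 (9.94), Klf6 (8.89), Id3 (8.60), Prrx1 (8.46), Mef2a (8.35), Tcf21, Stat3 (8.13) and Id1 (8.00). Gata4, a zinc finger factor of heart muscle and mesenchyme, had 7.65, 7.75 and 7.90 and Gata6 averaged 7.73, just under the top 10%. The epicardial factor Tbx18 averaged 7.52, whereas Wt1, which marks the epicardium, had 4.43, 4.25 and 4.36, near background. Nkx2-5, a factor of cardiac muscle, averaged 5.63 and exceeded the stricter bound. Tbx5 (2.98, 3.02 and 3.12), Meox2 (2.94) and Isl1 (2.82) were the 3 members at background. Among the cardiac factors, Tbx20, Gata4, Gata6 and Nkx2-5 therefore exceeded the stricter bound in every array, and Tbx5 and Isl1 did not exceed the lenient one in any.

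Hox genes, which set position along the body axis, were dim. Of 37 measured, 18 were above the background bound, none was high and only Hoxa4, with 5.35, 5.60 and 5.56, exceeded the stricter bound. Hoxa3 was lowest at 2.44. Of 15 pluripotency genes none was high and none exceeded the stricter bound, the brightest being Nanog at 4.36, and Sox2 (2.63) and Zfp42 (1.91) were at background. Among 20 immediate early factors, which are induced within minutes of a stimulus, Fosl2 (8.18) was the high one, 16 exceeded the stricter bound and Nr4a3 (3.07) was at background.

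Of 42 growth factor ligands 3 were high, beside 9.47% of all genes: Grn, which encodes progranulin (9.07), Ereg, a ligand of the epidermal growth factor receptor, at 9.01 ± 0.10 (8.99, 9.11 and 8.92), and Vegfd at 9.01 ± 0.02 (9.02, 9.02 and 8.98; SD, n = 3 each). Angpt1, the ligand of Tek, was lowest at 1.98 and Fgf10 averaged 2.18. Hgf was borderline with 3.67, 3.27 and 3.30. Of 32 ligands and antagonists of the TGF-beta family 4 were high, namely Fstl1, Gdf6 (9.31, 9.26 and 9.23), the activin subunit Inhba (9.24, 9.11 and 9.15) and Twsg1 (8.60), and Mstn was lowest at 2.39. Of 33 Wnt ligands and modulators only Frzb, a secreted Wnt inhibitor, was high, with 9.06, 9.22 and 9.10. The brightest Wnt was Wnt5a at 6.24, and Wnt8b was lowest at 2.52.

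Of 49 chemokines and cytokines 3 were high: Mif at 10.57 ± 0.04, Csf1, the growth factor of macrophages, at 10.21 ± 0.08 and the pentraxin Ptx3 at 8.20 ± 0.10 (SD, n = 3 each). At background were 20 of them, among them the alarmin Il33 (2.68) and, lowest, Cxcl15, and 15 of the 49 exceeded the stricter bound. Of 21 complement genes none was high, and Masp1, a protease of the lectin pathway, with 5.23, 5.31 and 5.25, was the one above the stricter bound. C6, of the membrane attack complex, was lowest. Among 31 insulin-like growth factor binding proteins and other secreted proteins 6 were high, namely Lgals1, the vasodilator peptide gene Adm (10.42, 10.31 and 10.36), Igfbp7, Cthrc1, Htra1 and Igfbp2, and Penk was lowest at 2.33.

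The myofibroblast list was the brightest outside the housekeeping genes among the lists shown, by its median. It holds contractile genes and also Postn and Cthrc1, which are secreted. Of 17 members 12 were high, 15 exceeded the stricter bound and none was at background, with a list median of 9.37. Acta2, the actin of smooth muscle and stress fibres, had 12.57, 12.70 and 12.59, and Tagln, an actin-binding protein, had 11.42, 11.31 and 11.31. Csrp1, Cnn2, Tpm1, Cald1, Vcl, Postn, Myl9, Tpm2, Fhl2 and Cthrc1 were also high, and Synpo2 was lowest at 4.33. Of 16 pericyte and smooth muscle genes none was high and 5 exceeded the stricter bound: calponin (Cnn1, 7.45), which the myofibroblast list holds too, Mcam (7.36), Smtn (6.42), Notch3 (5.50) and Rgs4 (5.20). Ndufa4l2, Des, Kcnj8 and smooth muscle myosin (Myh11, 3.86) were near background. The pericyte markers Rgs5 (2.54, 2.73 and 2.38), Higd1b (2.40), Steap4 and Vtn were at background, and Cspg4 was borderline at 3.55.

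Markers of other lineages were mostly at or near background, with exceptions in most lists. In a bulk culture a few cells with much RNA and many cells with little cannot be told apart, and whether any of these signals came from other cells was not tested. Of 23 endothelial genes 12 lay near background, 7 were at background and 1, Tie1, was borderline. Cdh5, the cadherin of endothelial junctions, had 3.15, 3.06 and 3.07. The 3 that exceeded the stricter bound were Eng, which stromal cells also make, at 9.12, the phosphatase Ptprb with 7.94, 7.86 and 7.91, and Ecscr with 6.87, 7.08 and 6.93. Ptprb missed the top 10% in replicate 2 alone, and without that replicate 2 of the 23 were high instead of 1. Those near background were Egfl7, Sox18, Nos3, Flt1, Cldn5, Fabp4, Icam2, Vwf, Esam, Tek, Plvap and Robo4. Emcn was lowest at 2.23.

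Of 17 epicardial and mesothelial genes 9 exceeded the stricter bound and 1 was high. Aldh1a1, a retinaldehyde dehydrogenase, had 11.36, 11.37 and 11.30. The next were Sema3d (7.82), Tbx18 (7.52), the uroplakin Upk1b (6.94), Aldh1a2 (6.75), Upk3b (5.93, 5.95 and 5.83), Krt19 (5.83), Gpm6a (5.53) and Lrrn4 (5.27). Krt8, Wt1, Krt18, Rspo1, Cdh1 and mesothelin (Msln, 3.55) were near background, Bnc1 was borderline and Muc16 was lowest at 1.74. The list's median of 5.27 was the highest of the 12 lineage lists plotted.

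Of 21 cardiomyocyte genes none was high and 4 exceeded the stricter bound: the troponin Tnnt2 with 7.03, 7.04 and 6.95, Nkx2-5, the atrial light chain Myl4 (5.61) and cardiac actin (Actc1, 5.40). Tnnc1, Ldb3, Mb, Mybpc3, Tnni3, Actn2, Ckm, Myh7 and Myl3 were near background. Cardiac myosin (Myh6) had 2.93, 2.92 and 3.08, and titin (Ttn), Nppa, Ryr2, Pln and, lowest, Casq2 (2.45) were also at background. Muscle genes above the stricter bound thus did not include the defining motor protein of the adult ventricle. Of 17 skeletal muscle genes only skeletal actin (Acta1, 6.09) exceeded the stricter bound, and Pax3, Tnnt3, Tnni2, Des, Pax7, Myog, Ckm and Myod1 were near background, with Myh1 lowest at 2.41.

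Of 24 macrophage and leukocyte genes only Lyz2, a lysozyme, exceeded the stricter bound, with 5.37, 5.94 and 5.53. Ptprc, the pan-leukocyte antigen CD45, had 2.85, 3.00 and 2.99, and Adgre1, Itgam and Aif1 were also at background. Cx3cr1, Cd68, Csf1r, Cd53, Coro1a, Cd3e and Tyrobp were near background, and Ms4a1 was lowest at 2.02. In the Schwann cell and neuron list of 15, Tubb3, a tubulin known from neurons, was high at 9.09 and no other member exceeded the stricter bound. Ngfr, Foxd3, Mbp, Th, Prph, Sox10, S100b and Kcna1 were near background, and Elavl4 was lowest at 2.08.

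Of 13 adipocyte genes Pparg (5.70) and Lpl (5.39) exceeded the stricter bound, Cebpa, Plin4, Plin1, Fabp4 and Retn were near background, and adiponectin (Adipoq) had 2.40, 2.38 and 2.51. The lowest was Cd36 at 2.08. Of 16 bone and cartilage genes the chondrocyte factor Sox9 (7.24) and Col2a1 did so, and Sost, Comp, Alpl, Chad and Col10a1 were near background, with Phex lowest at 1.85. Of 19 epithelial genes Krt19 and the claudin Cldn3 (5.68) did so, Krt8, Krt7, Krt18, Cdh1, Cldn4, Krt14, Krt15 and Cldn7 were near background, and Ocln was lowest at 2.14. Of 8 erythroid and platelet genes none exceeded it. Pf4 was nearest at 4.83, Itga2b, Slc4a1, Klf1 and Epor were near background, and Ppbp was lowest at 2.30.

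**Figure D4:**
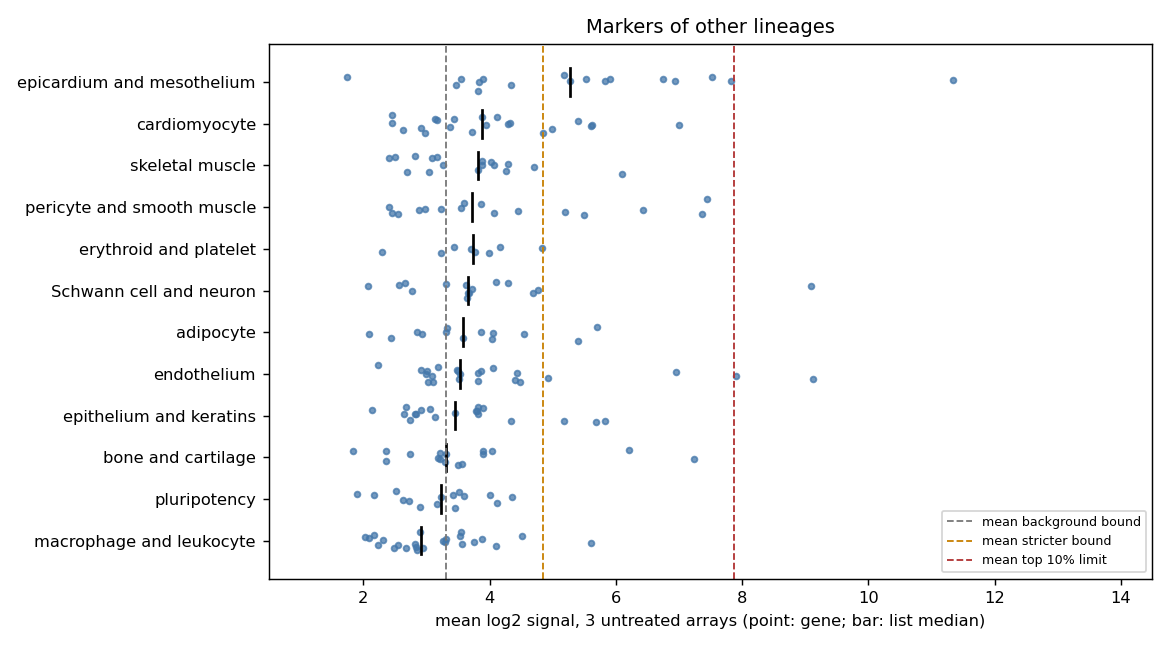
Mean log2 signal over the 3 untreated arrays (horizontal axis) of every measured member (points) of 12 lists of other lineages (rows), with list medians as black bars and the mean bounds as dashed lines. Apart from the epicardial and mesothelial list at 5.27, list medians lie between the lowest, 2.92 for macrophages and leukocytes, and 3.88 for cardiomyocytes.

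Most genes of dividing cells exceeded the stricter bound. All 24 mitosis genes were above the background bound and 20 exceeded the stricter bound, beside 64.9% and 42.9% of all genes. Anln, which acts in cell separation, was high at 8.16. Ccna2 (7.83), Ccnb2 (7.68) and Plk1 (7.63) followed. Cenpe was lowest at 3.98, and Mki67, a common marker of cycling cells, had 4.78, 4.76 and 4.74, near background. Of 24 DNA replication genes 21 exceeded the stricter bound, and Rrm1 (9.62), Pcna (8.79) and Rrm2 (8.42) were high, with Gins1 lowest at 4.49. Among 21 cell cycle regulators Ccnd2 (12.35, 12.27 and 12.31), Ccnd1 (11.19), Cdk4 (10.33), Cdk6 (9.41) and Mdm2 (8.20) were high, and E2f2 was lowest at 4.48. The 24 housekeeping genes had a median of 11.47, and Tbp, a general transcription factor, was the one outside the top 10% at 5.82.

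The labels give male mice. The Y-linked genes Eif2s3y (5.95, 6.09 and 5.84), Uty (4.77, 4.94 and 4.57) and Kdm5d (4.21, 4.25 and 4.19) were above background in every array, though only Eif2s3y exceeded the stricter bound. Xist, the RNA that silences an X chromosome in female cells, had 5.86, 5.96 and 5.98 and exceeded it too. Whether this signal came from Xist RNA was not tested. MicroRNA genes, whose precursors the arrays also carry, were dim: 89 of 300 were above background and none was high.

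The treated arrays show how this profile of untreated cells moved. The 3 comparisons share the untreated arrays, so they are not independent of each other. The classes rest on the same arrays, so neither is the direction of a change independent of the class. In a limma fit over all 12 arrays at a Benjamini-Hochberg adjusted p under 0.05, 66 genes (0.331%) were called with PDGF-AB, 639 (3.2%) with AG1296 at 1 uM and 375 (1.88%) with AG1296 at 10 uM. Among genes high in untreated cells the shares called were 0.635%, 7.78% and 5.45%. Among middling genes they were 0.461%, 4.24% and 2.39%, and among genes at background 0.0344%, 0.275% and 0.086%. The spread between arrays was smaller for high genes, with the median SD of 0.0620 given above against 0.140 at background, and the part of this spread in these shares was not tested. Of the 1889 high genes, AG1296 at 1 uM raised 63 and lowered 84, the 10 uM dose raised 56 and lowered 47, and PDGF-AB raised 2 and lowered 10. These counts move with the fit: the total with PDGF-AB was 7 with only the 6 arrays compared and between 21 and 40 with any 1 array of its 2 groups left out. Leaving out 1 array gave 349 to 439 at 1 uM and 219 to 291 at 10 uM.

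The largest rises with AG1296 among high genes were in Ccdc80, Prelp, Gpc4, Heg1 and Fbln5 at 1 uM. Ccdc80, a matrix-associated secreted protein, had 7.93, 7.93 and 7.97 in untreated cells, 9.27, 9.36 and 9.29 at 1 uM and 8.83, 8.94 and 8.94 at 10 uM. No treated array overlapped the untreated ones, and the differences were 1.36 ± 0.09 (SE, limma adjusted p = 1.1e-06) and 0.96 ± 0.09 (adjusted p = 5.4e-05). With PDGF-AB it had 7.63, 7.90 and 7.73 and was not called (limma adjusted p = 0.58). Prelp, Gpc4, Heg1, a membrane protein of heart and vessels, and Fbln5 followed at 1 uM, with rises of 1.24, 1.09, 1.04 and 1.03. At 10 uM the largest rises were in Gpc4 (1.04), Prelp (1.00), Ccdc80, the endocytic receptor Lrp1 (0.83) and Vegfd (0.80).

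The largest fall among high genes at both doses was in Nqo1. Nqo1, a quinone reductase of the oxidative stress response, had 8.33, 8.46 and 8.18 in untreated cells, 6.50, 6.59 and 6.45 at 1 uM and 6.47, 6.84 and 6.36 at 10 uM, and fell by 1.81 and 1.77 (SE 0.12 each, limma adjusted p = 1.1e-06 and 6.2e-06). It left the top 10% in all 6 arrays. Ptgs2, the inducible cyclooxygenase, had 9.39, 9.44 and 9.33 in untreated cells and fell by 1.48 and 1.70. Tll1, a procollagen-cleaving protease, fell by 1.55 and 0.96. Prkar2b, a subunit of protein kinase A, had 8.14, 8.28 and 8.13 in untreated cells and 6.70, 6.83 and 6.53 at 1 uM (limma adjusted p = 3.5e-06), and Tes, a focal adhesion protein, fell by 1.21. Hmox1, haem oxygenase, and the inositol transporter Slc5a3 fell by 0.99 and 0.93 at 10 uM. Each of these rises and falls with AG1296 stayed called under the 13 alternatives tried.

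With PDGF-AB the 2 high genes that rose were Prkar2b, by 0.76 ± 0.11, and Prrx1, by 0.68 ± 0.09 (SE, limma adjusted p = 0.012 and 0.0073). The largest falls were in Gdf6, by 0.70 ± 0.10, Adamts5, an aggrecan-cleaving protease, by 0.70 ± 0.08, Zdhhc2, Ccn5 and Sorbs2 (limma adjusted p from 0.0025 for Adamts5 to 0.023 for Sorbs2). None of these 7 calls held under every alternative. Those of Prrx1, Gdf6 and Adamts5 were lost only with the 6 arrays compared alone (adjusted p = 0.11, 0.084 and 0.056), and the other 4 were lost also without untreated replicate 1 or 3 or PDGF-AB replicate 3. Those of Prkar2b and Ccn5 were lost without PDGF-AB replicate 2, and those of Zdhhc2 and Sorbs2 without untreated replicate 2 or PDGF-AB replicate 1. Over these alternatives the adjusted p reached 0.074 for Prkar2b, 0.12 for Zdhhc2, 0.17 for Ccn5 and 0.13 for Sorbs2. Adamts5, at 10.36, 10.37 and 10.33 in untreated cells, had 9.70, 9.56 and 9.69 with PDGF-AB and 11.08, 10.96 and 10.97 with AG1296 at 1 uM.

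**Figure D5:**
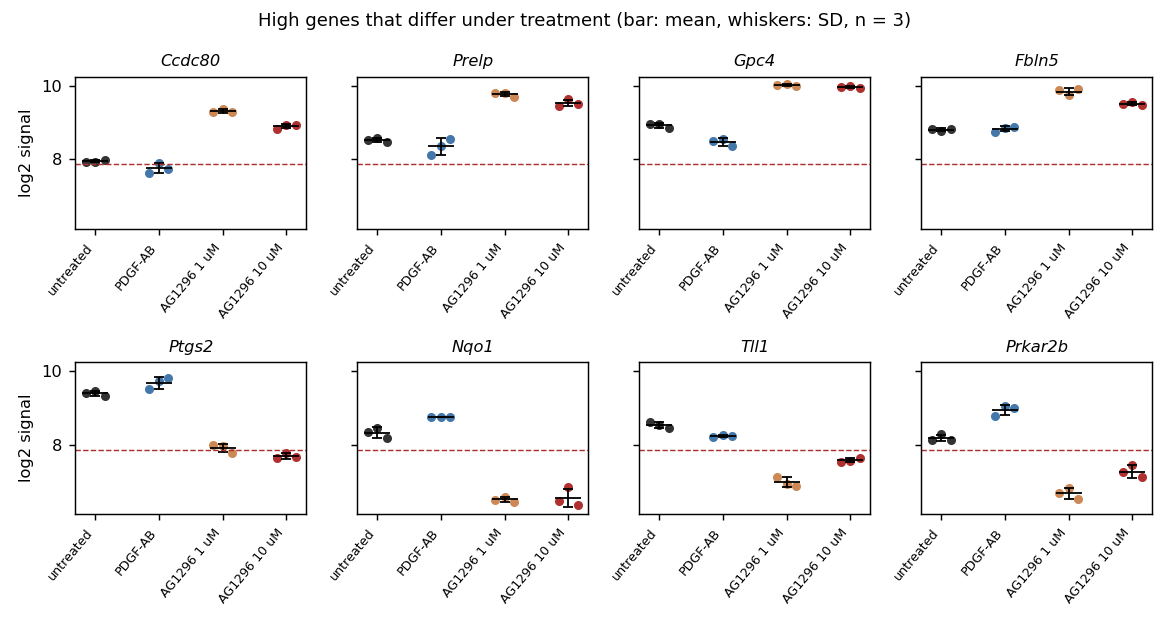
Log2 signal (vertical axis) of 8 genes that were high in untreated cells, in the 4 groups (horizontal axis), with each array as a point, the mean as a bar and the SD (n = 3) as whiskers, and the mean top 10% limit as a dashed line. Ccdc80, Prelp, Gpc4 and Fbln5 are above the untreated arrays at both AG1296 doses, and Ptgs2, Nqo1, Tll1 and Prkar2b are below them.

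Counts of calls within the matrix lists were read against those shares of all genes. Of 11 fibrillar collagens 4 rose and 0 fell at each AG1296 dose, beside 1.88% and 1.21% of all genes called higher and 1.33% and 0.672% called lower. Their median differences were 0.11 and 0.25, beside -0.01 and 0.01 for all genes. The calls kept under every alternative were 1 at 1 uM, that of Col11a1, and 3 at 10 uM, those of Col3a1, Col5a1 and Col11a1. The calls of Col1a1, at 0.51 and 0.53 (limma adjusted p = 0.013 and 0.016), were lost at 1 uM without untreated replicate 2 or treated replicate 1 or 3, and at 10 uM without untreated replicate 1 or 2 or treated replicate 1 or 3, with adjusted p up to 0.068 and 0.086. Of 32 proteoglycans 7 rose at 1 uM and 8 at 10 uM, and 6 of the calls at each dose were kept. Of 37 matrix glycoproteins 8 rose and 2 fell at 1 uM and 10 rose and 3 fell at 10 uM, with 6 and 12 of these calls kept.

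Of 28 fibroblast identity genes 6 rose and 3 fell at 1 uM and 6 rose and 1 fell at 10 uM, with 6 and 4 calls kept. Of 15 mesenchymal stromal surface genes 0 rose and 5 fell at 1 uM (Cd9, Vcam1, Itga5, Cd44 and Mcam), and 1 rose and 2 fell at 10 uM, with 2 calls kept at each dose. Dcn, just under the top 10% in untreated cells, had 9.43, 9.47 and 9.15 at 1 uM and 8.28, 8.41 and 8.47 at 10 uM. It rose by 1.70 ± 0.10 and 0.75 ± 0.10 (SE, limma adjusted p = 8.2e-07 and 0.0015). Pdgfra had 8.52, 8.46 and 8.55 at 1 uM and fell by 0.91 ± 0.09 (SE, limma adjusted p = 3.8e-05), yet remained in the top 10%. At 10 uM it averaged 9.02. That fall of 0.40 (limma adjusted p = 0.036) was lost without any of the 6 arrays, with adjusted p up to 0.15. Acta2, Tcf21, Tbx20, Gata4, Pdgfrb and Pecam1 were not called in any of the 3 comparisons. In the lists of cardiomyocytes (21 genes), skeletal muscle (17), Schwann cells and neurons (15), erythroid cells and platelets (8) and pluripotency (15) limma made 0 calls in the 3 comparisons. Its calls over all genes were 0.331%, 3.2% and 1.88%, shares at which lists of this size hold few or no calls, and its unadjusted p was under 0.05 for 1705, 2616 and 2276 of all genes.

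Of 17 epicardial and mesothelial genes 4 rose and 3 fell at 1 uM, and 2 rose and 2 fell at 10 uM, with 4 and 3 calls kept. Of all genes 1.88% rose and 1.33% fell at 1 uM, and 1.21% and 0.672% at 10 uM. Upk1b, at 6.94 in untreated cells, had 6.15, 6.15 and 6.04 at 1 uM and 5.85, 5.84 and 5.74 at 10 uM, and fell by 0.82 ± 0.09 and 1.13 ± 0.09 (SE, limma adjusted p = 0.00011 and 2.1e-05). Of 16 pericyte and smooth muscle genes 1 rose and 2 fell at 1 uM, and 3 rose and 1 fell at 10 uM, beside the same shares of all genes. Mcam, at 7.36 in untreated cells, had 6.08, 5.88 and 5.87 at 1 uM and 6.69, 6.80 and 6.82 at 10 uM, and fell by 1.42 ± 0.09 and 0.59 ± 0.09 (SE, limma adjusted p = 1.1e-06 and 0.0038). Sox9, of the bone and cartilage list, rose by 0.53 ± 0.08 and 0.76 ± 0.08 (SE, limma adjusted p = 0.0027 and 0.00026).

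Few genes moved across the background bound, beside the 5817 at background and 12948 above it in untreated cells. The bound was taken from each array's own receptor genes. It was 3.45, 3.25 and 3.28 with PDGF-AB. With AG1296 it was 3.21, 3.09 and 3.38 at 1 uM and 3.30, 3.23 and 3.33 at 10 uM. A gene near the bound could thus change class with little change in signal. With PDGF-AB 22 genes at background in untreated cells were above the bound in all 3 treated arrays and 6 went the other way, with AG1296 at 1 uM 32 and 11, and at 10 uM 22 and 14. Of these, 1 and 1, 6 and 6, and 2 and 3 were also called. Lum was among them: from 2.39, 2.50 and 2.58 it rose to 4.49, 4.49 and 4.21 at 1 uM, by 1.91 ± 0.13 (SE, limma adjusted p = 2.1e-06), while at 10 uM it had 2.46, 2.65 and 2.18 and was not called. Npy1r, a neuropeptide Y receptor, rose from 2.72, 2.62 and 2.82 to 4.49, 4.73 and 4.68 at 1 uM, by 1.92 ± 0.13 (SE, limma adjusted p = 1.2e-06). Hoxc13, Cd28 and the surface peptidase Mme rose by 0.85, 0.94 and 0.61 at 1 uM, and the kinase gene Bmx by 0.94 at 10 uM. Mme had 3.26, 3.24 and 3.41 at 1 uM, close to the bounds of those arrays.

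Genes that went down to background included Prl2c5, of the prolactin family of growth-related proteins. It had 4.84, 4.58 and 4.34 in untreated cells, 1.64, 1.96 and 1.86 at 1 uM and 2.72, 1.97 and 1.61 at 10 uM, and fell by 2.77 ± 0.22 and 2.49 ± 0.22 (SE, limma adjusted p = 6.4e-06 and 5.4e-05). Serpinb2, an inhibitor of plasminogen activators, had 4.13, 3.81 and 3.88 in untreated cells and fell by 1.02 and 0.98. With PDGF-AB both were called higher. Prl2c5 had 6.09, 6.45 and 6.32 and rose by 1.70 ± 0.22, and Serpinb2 rose by 0.77 ± 0.11 (SE, limma adjusted p = 0.0052 and 0.011). Whether these rises held under the alternatives was not tested. Ptn, a heparin-binding growth factor, fell by 1.07 at 1 uM. All of these genes lay under the stricter bound in the untreated arrays. The calls of Rtp4, which came up with PDGF-AB, Tyrobp, which went down with it, Myct1, which went down at 1 uM, and Hoxc13 at 10 uM did not hold when single arrays were left out. Rtp4 lost its call without any untreated array or PDGF-AB replicate 1 or 3, and Tyrobp without untreated replicate 1 or 3 or any PDGF-AB array. Myct1 lost it without untreated replicate 1 or 2 or any treated array, and Hoxc13 without untreated replicate 2 or 3 or treated replicate 1 or 3. Over the alternatives the adjusted p reached 0.20 for Rtp4, 0.20 for Tyrobp, 0.13 for Myct1 and 0.085 for Hoxc13.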

How the data were processed

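Total RNA was labelled with the Affymetrix WT kit, and the authors deposited log2 values per probe set, made with RMA and tested with limma per the submitters' processing notes, which give no versions. The log base was read from the range. The number of arrays limits the precision. Of 28853 probe sets, 21789 had exactly 1 symbol. Those with several (1621) or none (5443) were left out, and the brightest over all 12 arrays stood for each of 19938 genes. Groups were compared with limma 3.58.1 in R 4.3.3 in 1 fit of 12 arrays, two-sided, each treatment minus untreated, without a replicate block, checked on simulated data. The 43 gene lists held 1148 genes, of which 1070 were measured. The other listed genes were not analysed here, and some genes are in more than 1 list. Members and lists were chosen with earlier results of these data known. Genes named are the 25 brightest, each list's highest, lowest and high members, lineage members above background, the 10 largest SDs, the 5 largest changes each way among called high genes and among called genes crossing the bound, and fixed markers. Other members named at background or near it, in the immediate early, cell cycle and transcription factor lists, or as examples of changes were chosen after their values were seen. RefSeq promoters (GRCm38.p6) were matched by gene identifier. Alternatives changed the bounds, the probe set rule, normalization, the moderation and the arrays included.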

Additional observations from a re-analysis of the deposited data

How the results depend on the processing

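Levels of genes named from the untreated arrays and counts of list members moved little: of 430 counts of list members recomputed without an untreated array, after quantile normalization or with classes by the mean, 4 changed by over 1.5 times. The number of high genes follows its definition, with 952 for the top 5% and 3783 for the top 20%. With the stricter bound 6671 genes were middling and 10518 at background. Leaving out an untreated array gave 760 to 818 borderline genes. Averaging probe sets took Baiap2l1 to 9.36. For genes that crossed the background bound with PDGF-AB, the 99th percentile gave 8 rising above it and 32 falling to it, and the 90th percentile 11 falling to it. With AG1296 at 1 uM the 99th percentile gave 27 falling to it. At 10 uM the 90th and 99th percentiles gave 14 and 12 rising above it, and the 99th gave 9 falling to it. Called genes rose to 160, 1010 and 686 with a variance trend and robust moderation, for PDGF-AB, 1 uM and 10 uM. With only the 6 arrays compared they were 7 with PDGF-AB and 218 at 10 uM. Leaving out 1 array gave 21 to 40, 349 to 439 and 219 to 291. The cause of these shifts was not tested. With the replicate block, 61, 666 and 391 were called. Deviations of same-numbered arrays correlated at over 0.1 in 0 of 6 pairs of replicate 1, 6 of 6 of replicate 2 and 3 of 6 of replicate 3, and 8 of 12 arrays correlated best with their own number, so the numbers were not taken as pairing the arrays, though replicate 2 shared deviations. Of 276 calls of named or listed genes, 164 were kept under every alternative, 112 were lost under at least 1 and 0 changed direction. With 3 arrays a group and no other cell type, small changes and genes between both bounds cannot be resolved.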
